A study of Rattus norvegicus with 8 samples.

Results

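The oxidative phosphorylation subunits described here are those proteins of the mitochondrial respiratory chain and of the ATP synthase that are encoded in the nucleus. Subunits encoded in mitochondrial DNA were not included. The members were taken by name, as genes whose symbol begins with Ndufa, Ndufb, Ndufc, Ndufs, Ndufv, Uqcr, Cox4 to Cox8 or Atp5, together with the 4 succinate dehydrogenase genes (Sdha, Sdhb, Sdhc and Sdhd) and the cytochrome c genes Cyc1 and Cycs. The rule reads names and no measured value. Of 214 such symbols in the RefSeq table, 101 were pseudogenes, and 78 symbols had a probe on the array (97 of 30367 probes). A probe was tested where its signal was well above background in either dye on at least 2 of the 8 arrays, and 77 members were among the 22459 genes tested. The other one, Cox8c, was not well above background on any array. The 77 comprised 32 genes of complex I, 4 of complex II, 8 of complex III, 17 of complex IV, 15 of complex V and cytochrome c (Cycs). Of the complex IV symbols, Cox6c-ps1 is annotated as a transcribed pseudogene and is counted because its symbol follows the rule. All 77 were well above background in both dyes on all 8 arrays, and 60 of them lay in the brightest 10% of the genes tested.

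RNA came from primary cultures of Sprague Dawley rat neurons, taken at E18 from cortical and hippocampal tissue and treated after 7 days in culture. ADDL are soluble oligomers of amyloid-beta, and CAT-SKL is a catalase that carries a targeting signal for peroxisomes. The 4 groups of 2 arrays each received 1 µM CAT-SKL for 24 h, 1 µM ADDL for 24 h, CAT-SKL for 24 h and then ADDL for another 24 h (CAT-SKL+ADDL), or ADDL first and CAT-SKL second (ADDL+CAT-SKL). The labels do not state which combined name had which order, and the agent named first was assumed to come first. Every array set treated RNA in Cy5 against RNA of vehicle-treated neurons in Cy3, without a dye swap, so the dye preference of a probe and a treatment effect shared by all arrays cannot be told apart. All values below are log2 ratios of treated over vehicle unless stated, and 0 means an equal signal in both.

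The inner mitochondrial membrane holds the respiratory chain. Complex I takes electrons from NADH and complex II from succinate, and ubiquinone carries them to complex III. Cytochrome c passes them on to complex IV, which reduces oxygen to water. Complexes I, III and IV pump protons, and complex V, the ATP synthase, uses the returning protons to make ATP. Neurons depend heavily on this supply, and complexes I and III are well-known sources of superoxide, from which hydrogen peroxide, the substrate of catalase, is formed.

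Before the values, the promoters of a few members are shown, because many respiratory chain genes share binding motifs for a small set of regulators. NRF1 and GABP (an ETS family factor) are the classical activators of these genes, and YY1 and the ERR receptors also take part. RefSeq promoter entries (GRCr8) were available for 68 of the 78 members, and the 250 bases before the gene start were searched on both strands, where matches of different motifs may overlap. The NRF1 motif (GCGCA and GCGC with any 1 base between them) was found in 10 of 68 members (14.7%) and in 4.11% of all 27457 promoters. The ETS motif CCGGAAG was found in 19 members (27.9%) and in 7.71% of all promoters. The YY1 motif AAGATGGC occurred in 2 members (2.94% against 1.65% of all) and the ERR motif TCAAGGTCA in 0 members (0.339% of all). The member promoters had a median GC content of 56.4%, against 52% over all promoters, and its part in these shares was not tested. A match says only that these letters are present. Atp5me (chr14:1464610-1464859 (plus strand)) is shown because it holds 3 of the motifs, and Ndufa5 (chr4:53971236-53971485 (minus strand)) and Ndufa11 (chr9:1637364-1637613 (plus strand)) because they hold NRF1 matches, overlapping ones in Ndufa11. All of them had ratios above 0 on all 8 arrays. Cox8a (chr1:213833624-213833873 (minus strand)) is shown because it holds 2 ETS matches and had ratios below 0 on all 8 arrays, though not when arrays were only centred on their median. Each sequence runs 5′ to 3′ on the gene's strand, and capitals mark the matches (on either strand).
Atp5me: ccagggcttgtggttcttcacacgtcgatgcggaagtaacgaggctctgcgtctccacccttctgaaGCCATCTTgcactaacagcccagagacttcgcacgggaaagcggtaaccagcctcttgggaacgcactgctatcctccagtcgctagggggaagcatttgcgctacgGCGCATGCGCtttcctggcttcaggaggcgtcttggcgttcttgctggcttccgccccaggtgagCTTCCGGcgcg
Ndufa5: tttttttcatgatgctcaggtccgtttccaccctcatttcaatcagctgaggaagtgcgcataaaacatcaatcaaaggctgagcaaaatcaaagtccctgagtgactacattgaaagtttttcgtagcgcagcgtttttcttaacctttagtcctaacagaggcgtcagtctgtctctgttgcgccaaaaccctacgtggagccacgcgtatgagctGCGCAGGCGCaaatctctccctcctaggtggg
Ndufa11: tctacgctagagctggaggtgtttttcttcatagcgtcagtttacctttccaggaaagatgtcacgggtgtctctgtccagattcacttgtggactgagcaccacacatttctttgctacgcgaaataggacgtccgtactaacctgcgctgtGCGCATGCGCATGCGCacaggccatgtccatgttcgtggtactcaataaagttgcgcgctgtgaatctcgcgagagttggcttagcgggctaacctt
Cox8a: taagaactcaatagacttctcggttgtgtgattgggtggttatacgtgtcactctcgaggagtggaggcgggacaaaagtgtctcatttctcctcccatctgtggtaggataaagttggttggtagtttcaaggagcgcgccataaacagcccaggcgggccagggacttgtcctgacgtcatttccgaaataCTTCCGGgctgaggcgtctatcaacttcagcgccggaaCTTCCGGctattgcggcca

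The matches lay 76 (NRF1), 11 (ETS) and 183 (YY1) bases before the start in Atp5me, 32 bases before it in Ndufa5, 97 and 91 bases before it in Ndufa11, and 57 and 19 bases before it in Cox8a. Among the tested members with a promoter entry, the 10 with an NRF1 match had median ratios of 0.0952 after CAT-SKL, 0.0907 after ADDL, 0.1136 after CAT-SKL+ADDL and 0.1073 after ADDL+CAT-SKL. The 57 without one had medians of 0.0107, -0.0033, 0.0479 and 0.0042 in the same order. Of the 10, 5 were above 0 on all 8 arrays and 0 were below, compared with 17 above and 6 below among the 57. The 19 members with an ETS match had medians of 0.0465, 0.0031, 0.064 and 0.0042, and the 48 without one had 0.0429, 0.0141, 0.0565 and 0.0383. Of the 19, 7 were above 0 on all 8 arrays and 1, Cox8a, was below, compared with 15 above and 5 below among the 48. These are descriptions of the members, with no test.

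The array set limits what follows. The CAT-SKL+ADDL arrays differed by no more than spot noise: over 15660 probes printed in duplicate and free of outlier spots, the difference between these arrays in first spots correlated with that in second spots at r = 0.0074, against 0.271 to 0.678 for the other 27 pairs of arrays, so both were averaged and counted as 1 sample. Of 15 neuron markers 14 were tested (Rbfox3 was not), as were 9 of 10 astrocyte, 9 of 10 microglia and 5 of 6 endothelial markers, so detection alone does not set these cell types apart. The neuron markers had a median ratio between -0.032 and 0.042 in the 4 treatments, while single ones ran from -0.49 to 0.63, and 1 passed as higher after CAT-SKL (Gad1, 0.56, limma adjusted p = 0.043) and 1 after ADDL+CAT-SKL (Slc17a6, 0.41, adjusted p = 0.0446). Markers of other cells shifted as well, and arrays of the same group could differ widely. The 9 tested astrocyte markers had medians of 0.79 after CAT-SKL, 0.92 after ADDL, 1.16 after CAT-SKL+ADDL and 0.13 after ADDL+CAT-SKL. In these treatments 0 of the 9 passed, where 2.62%, 0%, 0% and 0.454% of all genes did. At an unadjusted p under 0.05 (limma), 6 were higher after CAT-SKL, 9 after ADDL and 0 after ADDL+CAT-SKL. The shares of all genes there, in either direction, were 21.2%, 19% and 17.6%. On single arrays the medians of the astrocyte markers were 1.23 and 0.27 after CAT-SKL and 0.57 and 1.19 after ADDL. They were 1.18 and 1.13 after CAT-SKL+ADDL and 0.33 and -0.060 after ADDL+CAT-SKL. The 10 oligodendrocyte lineage markers had medians of 0.37, 0.26, 0.65 and -0.035 in the same order, and the 7 tested proliferation markers had 0.27, 0.49, 0.47 and 0.20. After CAT-SKL, 3 oligodendrocyte lineage markers and 1 proliferation marker passed as higher, where 0.837% of all genes did. In the other treatments 0 of either list passed, where 0% of all genes did after ADDL and CAT-SKL+ADDL and 0.454% after ADDL+CAT-SKL. The 9 microglia and 5 endothelial markers had medians between -0.072 and 0.066. In bulk RNA, a change in the share of a cell type and a change in RNA per cell cannot be told apart, and the part of these shifts in the results below was not tested. Arrays of single and of sequential treatments sat on different rows of the slide, so slide position and sequence of agents cannot be told apart.

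How many subunit genes passed depended on the scaling. With loess, which removes any drift of the ratio with brightness and is used throughout unless stated, 1, 0, 0 and 1 of 77 members passed after CAT-SKL, ADDL, CAT-SKL+ADDL and ADDL+CAT-SKL, whereas 22, 0, 3 and 8 did, all as higher, when each array was only centred on its median. With that centring 8.1%, 1.91%, 1.45% and 1.67% of all genes passed in either direction. The account of the loess fit comes first. After CAT-SKL, 1 of 77 members passed an adjusted p of 0.05 (limma, Benjamini-Hochberg over all genes tested), the complex IV isoform Cox4i2, which was higher. Of all genes, 2.62% passed in that comparison (0.837% as higher and 1.78% as lower). After ADDL+CAT-SKL, 1 member passed, the complex I gene Ndufa10l1, which was lower, against 0.454% of all genes (0.24% as higher and 0.214% as lower). After ADDL and after CAT-SKL+ADDL, 0 members passed, and 0% of all genes did. At an unadjusted p under 0.05, limma had 20 members (14 higher, 6 lower) after CAT-SKL, 20 (12 higher, 8 lower) after ADDL, 8 (7 higher, 1 lower) after CAT-SKL+ADDL and 30 (19 higher, 11 lower) after ADDL+CAT-SKL. The corresponding shares of members were 26.0%, 26.0%, 10.4% and 39.0%, beside 21.2%, 19%, 11.3% and 17.6% of all genes. Among the 60 members in the brightest 10% the shares were 23.3%, 21.7%, 8.33% and 36.7%, beside 32.3%, 25%, 16.4% and 33% of all genes of that brightness, so against bright genes the members' shares were lower in 3 of the 4 treatments. Had the CAT-SKL+ADDL arrays been counted as separate samples, 5, 4, 7 and 8 members would have passed in the 4 treatments, beside 8.1%, 4.34%, 10.3% and 3.94% of all genes.

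The intervals give the size of change that the loess ratios allow. For each of the 4 treatments against vehicle, the loess 95% confidence interval of every one of the 77 members lay within a 1.5-fold change in either direction, with a median half-width of 0.133, or 0.188 for CAT-SKL+ADDL with its 1 sample. With median centring the interval stayed within that bound for 70, 77, 36 and 73 of the 77 after CAT-SKL, ADDL, CAT-SKL+ADDL and ADDL+CAT-SKL, and single members reached 0.44, 0.34, 0.56 and 0.43. The member median was 0.042 after CAT-SKL, -0.0015 after ADDL, 0.051 after CAT-SKL+ADDL and 0.021 after ADDL+CAT-SKL, where the median of all genes lay between -0.0040 and -0.00016. The SD among members was 0.112, 0.124, 0.110 and 0.153 in the same order. Signs with loess are relative to genes of like brightness. With median centring, 22 of the 25 members above 0 on all 8 arrays were still above on all 8, but of the 8 members below 0 on all 8 only Cox8b was still below. A value described as below 0 is thus low for a gene of its brightness and need not be below vehicle on the other scale. Cox8b was a dim gene, in brightness group 2 of 10 counted from the dimmest. In the map of members by array, complex I shows a block of genes in red and a smaller block in blue, and complex IV has blue rows below a dark red Cox4i2.

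**Figure D1:**
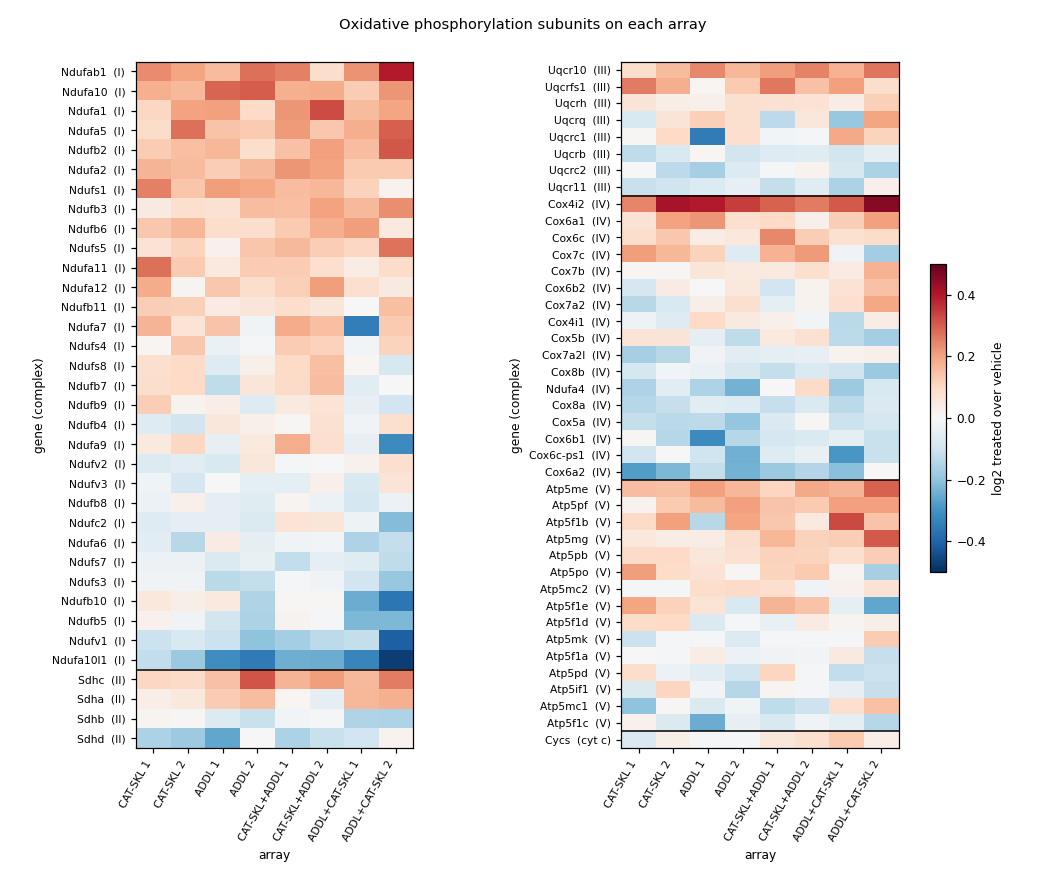
Log2 ratio of treated over vehicle (colour, from -0.5 to 0.5) for 76 of the 77 members (rows, complex in brackets, ordered by mean within each complex) on the 8 arrays (columns). Cox4i2 is red and Ndufa10l1 blue in every column, and most other members stay pale.

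Complex I was split by subunit type. Its 7 measured catalytic core genes, which carry the flavin, the iron-sulfur clusters and the ubiquinone site, had medians of -0.030 after CAT-SKL, -0.055 after ADDL, -0.012 after CAT-SKL+ADDL and -0.094 after ADDL+CAT-SKL, which turned to 0.129, -0.084, 0.204 and -0.0089 with median centring. The 12 accessory genes of the Ndufa, Ndufab and Ndufc type, which surround the core, had 0.136, 0.10, 0.166 and 0.063, all above 0 under both scalings. The 10 Ndufb genes, accessory subunits of the membrane arm, had 0.067, 0.013, 0.066 and 0.00011 (0.274, 0.018, 0.330 and 0.133 with median centring). Over all 32 genes of complex I the medians were 0.075, 0.0011, 0.114 and 0.012 (0.242, -0.00028, 0.328 and 0.133 with median centring), and 21, 16, 23 and 16 of the 32 had a mean above 0. These groups of subunits were formed with the values known and were not tested against each other.

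Among the core genes, Ndufv1, which binds NADH and the flavin, had the lowest ratios. Its arrays gave -0.11 and -0.076 after CAT-SKL, -0.11 and -0.20 after ADDL, -0.17 and -0.13 after CAT-SKL+ADDL, and -0.12 and -0.41 after ADDL+CAT-SKL. All 8 lay below 0, and the second ADDL+CAT-SKL array was the lowest. The mean after ADDL+CAT-SKL was -0.26 ± 0.074 (SE), which did not pass (adjusted p = 0.128). Ndufs3 and Ndufs7, which belong to the arm that leads electrons to ubiquinone, were also below 0 on all 8 arrays. Their ranges were -0.19 to -0.0060 and -0.13 to -0.029. Ndufs1, the largest core subunit, went the other way, with 0.25 and 0.14 after CAT-SKL, 0.21 and 0.19 after ADDL, 0.15 and 0.17 after CAT-SKL+ADDL, and 0.12 and 0.017 after ADDL+CAT-SKL, all above 0. The core genes Ndufs8 and Ndufv2 had values on both sides of 0.

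The accessory gene Ndufab1 encodes the mitochondrial acyl carrier protein. Its brighter probe gave 0.24 and 0.20 after CAT-SKL, 0.16 and 0.28 after ADDL, 0.25 and 0.09 after CAT-SKL+ADDL, and 0.23 and 0.40 after ADDL+CAT-SKL. The means were 0.22 after CAT-SKL, 0.22 after ADDL, 0.17 after CAT-SKL+ADDL and 0.31 after ADDL+CAT-SKL, the last with an adjusted p of 0.0762. Its other probe gave means of -0.11, 0.022, -0.039 and -0.073, so the probes disagreed and the gene has no settled direction. Ndufa1, a small membrane subunit, had 0.10 and 0.20 after CAT-SKL, 0.21 and 0.095 after ADDL, 0.22 and 0.32 after CAT-SKL+ADDL, and 0.16 and 0.20 after ADDL+CAT-SKL, with the highest pair after CAT-SKL+ADDL. Ndufa5, a subunit of the matrix arm whose promoter is shown above, had 0.092 and 0.28 after CAT-SKL, 0.14 and 0.13 after ADDL, 0.21 and 0.14 after CAT-SKL+ADDL, and 0.18 and 0.30 after ADDL+CAT-SKL. Both genes were above 0 on all arrays and passed in no comparison (Ndufa1 after CAT-SKL+ADDL, adjusted p = 0.258; Ndufa5 after ADDL+CAT-SKL, adjusted p = 0.118). In all, 13 of the 32 complex I genes were above 0 on all 8 arrays, among them Ndufa2, Ndufa10, Ndufa11, Ndufa12, Ndufb2, Ndufb3, Ndufb6, Ndufb11 and Ndufs5, and 5 were below 0 on all 8. For Ndufs5 the other probe averaged -0.031, -0.12, -0.032 and -0.12, on the other side of 0, so that gene too has no settled direction.

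Ndufa10l1, named for its likeness to the accessory subunit Ndufa10, was the member that passed after ADDL+CAT-SKL. Its brighter probe gave -0.12 and -0.18 after CAT-SKL, -0.31 and -0.35 after ADDL, -0.25 and -0.25 after CAT-SKL+ADDL, and -0.33 and -0.47 after ADDL+CAT-SKL. Every array was below 0, with the CAT-SKL arrays nearest to it and the ADDL+CAT-SKL arrays overlapping the ADDL range at one end. The mean was -0.40 ± 0.057 (SE) after ADDL+CAT-SKL (limma, adjusted p = 0.0446), -0.33 after ADDL (adjusted p = 0.0714), -0.25 after CAT-SKL+ADDL (adjusted p = 0.293) and -0.15 after CAT-SKL (adjusted p = 0.174). The call rested on 1 probe: the other probe of the gene gave 0.052 and -0.037 after CAT-SKL, -0.13 and -0.013 after ADDL, -0.042 and -0.037 after CAT-SKL+ADDL, and -0.063 and 0.0098 after ADDL+CAT-SKL, with values on both sides of 0. Averaging the probes gave -0.21 after ADDL+CAT-SKL and ended the call (adjusted p = 0.107). So did median centring (-0.30, adjusted p = 0.129), the deposited log ratios (-0.24, adjusted p = 0.327), no background subtraction (adjusted p = 0.0891), no detection filter (adjusted p = 0.0501) and leaving out any single CAT-SKL, ADDL or ADDL+CAT-SKL array (adjusted p between 0.0654 and 0.306).

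Ndufa10 itself had ratios of the opposite sign, with 0.18 and 0.16 after CAT-SKL, 0.29 and 0.30 after ADDL, 0.18 and 0.19 after CAT-SKL+ADDL, and 0.13 and 0.22 after ADDL+CAT-SKL. The ADDL pair was the highest of the 4 and did not overlap the rest, and the mean after ADDL was 0.30 ± 0.053 (SE, adjusted p = 0.0718). The difference between CAT-SKL and ADDL was -0.13 for Ndufa10 (95% interval -0.30 to 0.044) and 0.18 for Ndufa10l1 (-0.0082 to 0.37), and neither passed. Probe sequences were not used here, so how well the probes tell these related genes apart was not tested. The same holds for 36 of the 78 measured members that have pseudogene copies under their own symbol in the RefSeq table, 8 copies for Atp5mg and 7 for Ndufb4 among them.

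**Figure D2:**
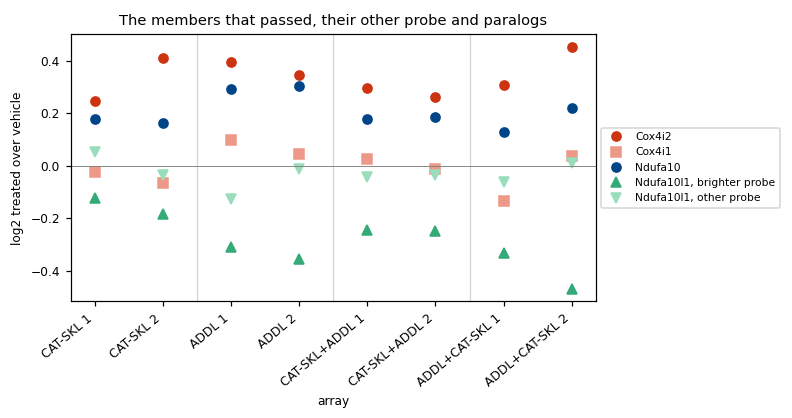
Log2 ratio of treated over vehicle on each of the 8 arrays for Cox4i2, its partner isoform Cox4i1, Ndufa10 and both probes of Ndufa10l1. Cox4i2 lies between 0.25 and 0.45, the brighter Ndufa10l1 probe between -0.47 and -0.12, and its other probe near 0.

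Within the membrane arm, Ndufb10 stood out after ADDL+CAT-SKL. The arrays gave 0.054 and 0.03 after CAT-SKL, 0.049 and -0.15 after ADDL, 0.0069 and 0.0049 after CAT-SKL+ADDL, and -0.25 and -0.36 after ADDL+CAT-SKL. The ADDL+CAT-SKL pair lay below all other arrays, with a mean of -0.31 ± 0.065 (SE, adjusted p = 0.0805). Its second probe averaged -0.072, -0.089, 0.016 and -0.20 in the same order of treatments, so both probes were lowest after ADDL+CAT-SKL. Ndufb5 was also lowest there, with -0.23 and -0.22 on its arrays (adjusted p = 0.0921), against 0.023 and -0.018 after CAT-SKL. Neither passed.

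Complex II feeds electrons from the citric acid cycle into the chain, and its 4 genes had ratios on both sides of 0. Medians were 0.027, 0.026, -0.015 and 0.066 after CAT-SKL, ADDL, CAT-SKL+ADDL and ADDL+CAT-SKL (0.176, -0.0043, 0.191 and 0.151 with median centring). Sdhc, a membrane anchor, had 0.10 and 0.094 after CAT-SKL, 0.15 and 0.31 after ADDL, 0.17 and 0.21 after CAT-SKL+ADDL, and 0.16 and 0.26 after ADDL+CAT-SKL. It was above 0 on all arrays, and its mean after ADDL was 0.23 ± 0.061 (SE, adjusted p = 0.109). Sdhd, the other membrane anchor and its partner in the same complex, had -0.16 and -0.18 after CAT-SKL, -0.26 and -0.0021 after ADDL, -0.16 and -0.11 after CAT-SKL+ADDL, and -0.10 and 0.018 after ADDL+CAT-SKL. It was below 0 on 7 of 8 arrays, and after CAT-SKL the mean was -0.17 ± 0.071 (adjusted p = 0.22). Of the catalytic subunits, the flavoprotein Sdha averaged 0.044, 0.14, -0.018 and 0.17 and the iron-sulfur protein Sdhb 0.011, -0.09, -0.012 and -0.15.

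Complex III had medians of 0.020, 0.0056, -0.0013 and 0.041 in the same order of treatments (0.164, 0.010, 0.228 and 0.141 with median centring). Uqcrfs1, the Rieske iron-sulfur protein, had 0.26 and 0.18 after CAT-SKL, 0.011 and 0.13 after ADDL, 0.26 and 0.15 after CAT-SKL+ADDL, and 0.20 and 0.086 after ADDL+CAT-SKL. Its mean after CAT-SKL was 0.22 ± 0.06 (SE, adjusted p = 0.0869). Uqcr10, a small structural subunit, had 0.086 and 0.16 after CAT-SKL, 0.24 and 0.17 after ADDL, 0.21 and 0.25 after CAT-SKL+ADDL, and 0.17 and 0.27 after ADDL+CAT-SKL, all above 0, with a mean of 0.23 after CAT-SKL+ADDL (adjusted p = 0.323). The core proteins Uqcrc1 and Uqcrc2 averaged 0.052, -0.13, -0.0096 and 0.15 and -0.066, -0.12, 0.0071 and -0.12, and for Uqcrc1 the ADDL arrays disagreed at -0.35 and 0.085. Uqcr11 shows how far probes of 1 gene can differ. Its brightest probe averaged -0.11, -0.055, -0.09 and -0.066, its second probe 0.075, 0.045, -0.011 and -0.039 and the remaining one 0.22, 0.23, 0.16 and 0.25. For Uqcrb, the probe used averaged -0.10, -0.041, -0.062 and -0.071 and its other probe 0.12, 0.12, 0.28 and 0.19. The medians of complex III thus depend on the choice of probe. Cyc1, the cytochrome c1 of this complex, had no probe under its symbol. Soluble cytochrome c, Cycs, gave -0.073 and 0.028 after CAT-SKL, -0.011 and -0.01 after ADDL, 0.058 and 0.08 after CAT-SKL+ADDL, and 0.13 and 0.034 after ADDL+CAT-SKL with the probe that had a value on every array. Its other probe was below 0 on each of the 7 arrays where it had a value, with means of -0.16 after CAT-SKL, -0.26 after ADDL and -0.088 after ADDL+CAT-SKL, so the probes disagreed here too.

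Complex IV had medians of -0.048, -0.034, -0.015 and -0.080 with loess, which turned to 0.121, -0.0084, 0.261 and 0.051 with median centring. With loess, 11, 9, 9 and 10 of its 17 tested genes had a mean below 0. Cox4i2 stood apart, the isoform of subunit IV that is known from lung and from low oxygen. The arrays gave 0.25 and 0.41 after CAT-SKL, 0.39 and 0.34 after ADDL, 0.30 and 0.26 after CAT-SKL+ADDL, and 0.31 and 0.45 after ADDL+CAT-SKL. Every array was above 0 and the groups overlapped. The mean was 0.33 ± 0.064 (SE) after CAT-SKL (limma, adjusted p = 0.0454), 0.37 ± 0.064 after ADDL (adjusted p = 0.0714), 0.28 ± 0.091 after CAT-SKL+ADDL (adjusted p = 0.29) and 0.38 ± 0.064 after ADDL+CAT-SKL (adjusted p = 0.056). The value after CAT-SKL, the one that passed, was thus not the largest of the 4, and the difference between CAT-SKL and ADDL was -0.041 (95% interval -0.25 to 0.17). Leaving out any single CAT-SKL, ADDL or ADDL+CAT-SKL array ended the CAT-SKL call (adjusted p between 0.0643 and 0.364), as did the deposited log ratios (adjusted p = 0.195), no background subtraction (adjusted p = 0.0623) and no detection filter (adjusted p = 0.0531), while leaving out either CAT-SKL array brought the ADDL value to an adjusted p of 0.045. The ratio was highest, at 0.45, on the second ADDL+CAT-SKL array, where the astrocyte markers had a median of -0.060, and the part of those markers in the Cox4i2 ratios was not tested. The common isoform Cox4i1 gave -0.026 and -0.065 after CAT-SKL, 0.10 and 0.046 after ADDL, 0.025 and -0.013 after CAT-SKL+ADDL, and -0.13 and 0.038 after ADDL+CAT-SKL, on both sides of 0.

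Other tissue-specific isoforms of complex IV were set beside their common partners, with no test of the difference between isoforms. Cox6a2, the heart and muscle form of subunit VIa, had -0.28 and -0.22 after CAT-SKL, -0.12 and -0.24 after ADDL, -0.19 and -0.15 after CAT-SKL+ADDL, and -0.21 and -0.0016 after ADDL+CAT-SKL. All were below 0, though the last only just, and the mean after CAT-SKL was -0.25 ± 0.066 (SE, adjusted p = 0.0816). Cox6a1, the common form, had 0.072 and 0.20 after CAT-SKL, 0.22 and 0.083 after ADDL, 0.10 and 0.025 after CAT-SKL+ADDL, and 0.12 and 0.20 after ADDL+CAT-SKL, all above 0. The ratios of the 2 isoforms did not overlap on any treatment. For subunit VIII, Cox8b, the muscle form, and Cox8a, the common form, were both below 0 on all 8 arrays, with ranges of -0.18 to -0.013 and -0.14 to -0.059. The testis form Cox6b2 averaged -0.021, 0.026, -0.039 and 0.11 and the common form Cox6b1 -0.07, -0.23, -0.077 and -0.08, the latter lowest after ADDL with arrays of -0.32 and -0.14 (adjusted p = 0.125). Cox7a2, the common form of subunit VIIa, averaged -0.11, 0.056, -0.015 and 0.14. Cox7a1, the heart and muscle form, had no probe under its symbol.

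Ndufa4, first assigned to complex I and now counted with complex IV, had -0.15 and -0.052 after CAT-SKL, -0.16 and -0.24 after ADDL, -0.00069 and 0.10 after CAT-SKL+ADDL, and -0.18 and -0.076 after ADDL+CAT-SKL. It was lowest after ADDL (-0.20 ± 0.058, SE; adjusted p = 0.135), and its value after CAT-SKL+ADDL was 0.24 above that after ADDL (95% interval 0.012 to 0.48), the only member at an unadjusted p under 0.05 in that comparison (0.042; adjusted p = 1.00). Cox5a, which binds the matrix side, was below 0 on 7 of 8 arrays, with means of -0.13, -0.16, -0.033 and -0.10. Of the complex IV genes, 4 were above 0 on all 8 arrays (Cox4i2, Cox6a1, Cox6c and Cox7b) and 3 below (Cox6a2, Cox8a and Cox8b).

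Complex V had medians of 0.047, 0.0031, 0.051 and 0.046 (0.265, 0.037, 0.324 and 0.194 with median centring). Its catalytic head and central stalk (Atp5f1a to Atp5f1e, 5 genes) had medians of 0.096, -0.0033, 0.0013 and -0.036 (0.281, 0.0074, 0.321 and 0.13 with median centring), and the 4 genes of the peripheral stalk had 0.085, 0.053, 0.117 and 0.013 (0.295, 0.082, 0.397 and 0.160). Atp5me, a small membrane subunit whose promoter is shown above, had 0.15 and 0.15 after CAT-SKL, 0.21 and 0.17 after ADDL, 0.11 and 0.19 after CAT-SKL+ADDL, and 0.17 and 0.29 after ADDL+CAT-SKL. All arrays were above 0, and the mean after ADDL+CAT-SKL was 0.23 ± 0.055 (SE, adjusted p = 0.097). Atp5pf and Atp5pb, of the peripheral stalk, and Atp5mg, a membrane subunit, were also above 0 on all arrays, with ranges of 0.016 to 0.21, 0.058 to 0.12 and 0.038 to 0.31. The other Atp5mg probe averaged -0.067, -0.078, 0.053 and -0.18 and was below 0 on 6 of 8 arrays, which leaves the direction of that gene unsettled. No gene of complex V was below 0 on all arrays. Atp5f1c, the rotating central shaft, had the lowest mean over treatments, with 0.021 and -0.072 after CAT-SKL, -0.25 and -0.042 after ADDL, -0.077 and -0.016 after CAT-SKL+ADDL, and -0.05 and -0.14 after ADDL+CAT-SKL. The catalytic subunit Atp5f1b had arrays from -0.14 to 0.33, with the pair after ADDL at -0.14 and 0.20. The c-ring genes Atp5mc1 and Atp5mc2, which encode the same mature protein, averaged -0.10, -0.048, -0.12 and 0.12 and -0.01, 0.092, 0.034 and 0.046. Atp5if1, the inhibitor that stops the synthase from running backwards, averaged 0.018, -0.08, 0.0044 and -0.077.

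**Figure D3:**
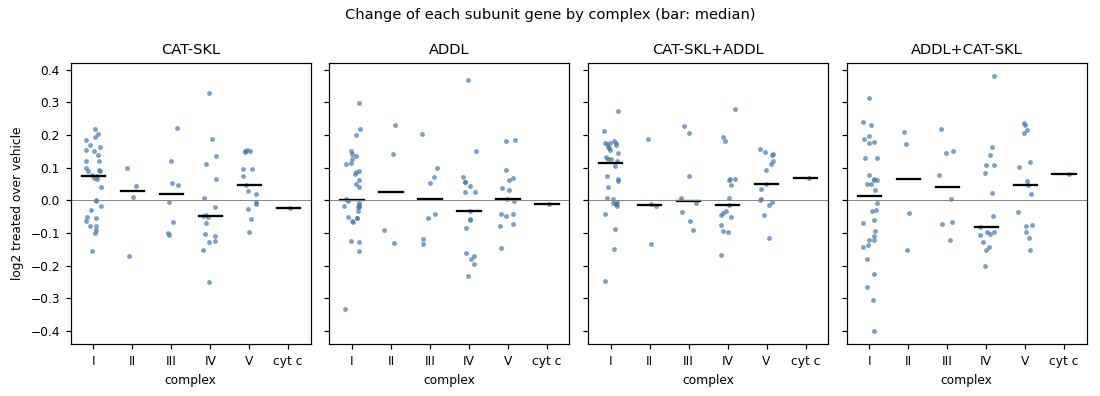
Log2 ratio of treated over vehicle (vertical axis, group mean) for each member, by complex (horizontal axis) and treatment (panels); black bars are medians. Complex I has its highest medians after CAT-SKL (0.075) and CAT-SKL+ADDL (0.114), the complex IV medians lie below 0 in all panels with loess (3 of the 4 lie above 0 with median centring, which is not drawn), and the members of each complex spread over both sides of 0.

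Signs were also counted over all 8 arrays, with loess. Of the 77, 25 were above 0 on all 8 arrays (32.5%), where 7.47% of all genes were, and 8 were below 0 on all 8 (10.4%), where 7.99% of all genes were. Within the brightest 10% of genes, 19 of 60 members (31.7%) were above 0 on all arrays, beside 12.7% of all genes of that brightness, and 6 (10%) were below 0 on all, beside 15.7%. These counts take the brightest probe of each gene. Of the 33 members with 1 sign on all arrays, 4 had another tested probe (Atp5mg, Ndufa10l1, Ndufab1 and Ndufs5), and in 0 of the 4 did it keep that sign on all arrays. With median centring 27 members were above on all arrays (7.83% of all genes) and 1 was below (4.66%). All 8 arrays carry treated RNA in the same dye, so this count cannot separate a change common to the treatments from a dye preference of the probes.

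Members were next compared between treatments, to see whether levels after the sequential treatments differed from those after a single agent. The sequential treatments ran for another 24 h. In comparisons with a single agent, the second agent and the longer treatment therefore cannot be told apart. In all 6 pairs of treatments 0 of 77 members passed in limma, and 0% of all genes did. At an unadjusted p under 0.05, CAT-SKL against ADDL had 0 members (8.7% of all genes), CAT-SKL+ADDL against ADDL had 1 (3.9%), ADDL+CAT-SKL against ADDL had 1 (8.39%) and CAT-SKL+ADDL against ADDL+CAT-SKL had 6 (5.64%). Of the comparisons with CAT-SKL alone, CAT-SKL+ADDL had 0 members (0.387%) and ADDL+CAT-SKL had 11, 3 higher and 8 lower (10%). The 95% intervals lay within a 1.5-fold change for 77 of 77 members in 4 of the 6 comparisons, for 76 in ADDL+CAT-SKL against ADDL and for 74 in CAT-SKL+ADDL against ADDL+CAT-SKL. With median centring they did so for 24 to 77 members, fewest in CAT-SKL+ADDL against ADDL.

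A few members had wide gaps between the orders of treatment. Ndufa9, an accessory subunit at the junction of the arms of complex I, was 0.31 higher after CAT-SKL+ADDL than after ADDL+CAT-SKL (95% interval 0.025 to 0.60), Ndufb10 0.31 (0.054 to 0.57) and Atp5f1e, a small subunit of the central stalk, 0.31 (0.033 to 0.59). These genes were picked for their gaps after the values were seen, and the intervals are not adjusted for that. None of the gaps passed, and CAT-SKL+ADDL counted as 1 sample. For Ndufa9 the ADDL+CAT-SKL arrays were -0.042 and -0.32, and for Atp5f1e -0.044 and -0.26, and the second array was the lower in both. That array had the dimmest Cy5 signal of the 8 (median 87.5, against 97 to 127.5), and the part of that in these gaps was not tested. Against CAT-SKL alone, ADDL+CAT-SKL was lower by -0.35 for Ndufb10 (adjusted p = 0.447) and higher by 0.25 for Cox7a2 (adjusted p = 0.447).

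The level of the members depends on how brightness is handled, since most members are bright. With each array only centred on its median, the member median rose to 0.227 after CAT-SKL, 0.321 after CAT-SKL+ADDL and 0.134 after ADDL+CAT-SKL, and was -0.003 after ADDL. Under that scaling 22, 3 and 8 members passed as higher in those 3 treatments, 0 as lower, and 0 after ADDL, while 8.1%, 1.45%, 1.67% and, after ADDL, 1.91% of all genes passed in either direction. The brightest 10% of all genes also had medians above 0 on 6 of the 8 arrays with that scaling. Its medians on the CAT-SKL arrays were 0.171 and 0.232, and those of the members 0.181 and 0.267. On the CAT-SKL+ADDL arrays the brightest 10% had 0.257 and 0.251 and the members 0.326 and 0.303. The ADDL+CAT-SKL arrays disagreed, at 0.220 and -0.023 for the brightest 10% and 0.236 and 0.044 for the members. On the ADDL arrays the values were -0.020 and 0.022 for the brightest 10% and 0.0047 and 0.035 for the members, so on 2 arrays the signs differed. The signs of the member medians in the text are therefore relative to genes of like brightness.

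**Figure D4:**
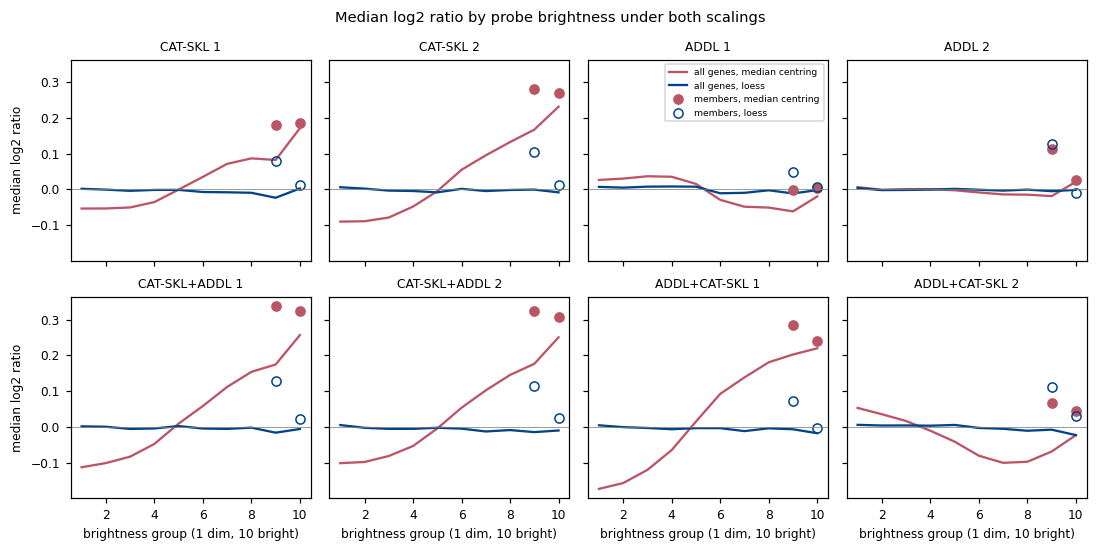
Median log2 ratio of treated over vehicle (vertical axis) by brightness rank in 10 equal groups of genes (horizontal axis), 1 panel per array, for all genes (lines) and for members where a group holds at least 5 of them (points), with median centring (red) and loess (blue). In the brightest 10% the red line reaches 0.171 to 0.257 on 5 arrays and stays between -0.023 and 0.022 on the other 3, and the red points lie near or above it.

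The wider set of mitochondrial genes was measured beside the subunits. Of all genes, 2.62%, 0%, 0% and 0.454% passed in the 4 treatments, so few or no calls would be found in most lists of this size. Of 47 assembly factors 37 were tested and 0 passed; Ecsit, a complex I assembly factor, averaged -0.21, -0.26, -0.20 and -0.26 in the 4 treatments. Of 20 genes of the citric acid cycle and pyruvate dehydrogenase 19 were tested and 0 passed. In that list Idh2, the mitochondrial NADP-dependent isocitrate dehydrogenase, averaged 0.29, 0.36, 0.40 and 0.14, and Suclg2, a succinyl-CoA ligase subunit, 0.63, 0.46, 0.76 and -0.094. Suclg2 was high on the arrays where the astrocyte markers were high (1.05 and 0.21 after CAT-SKL, 0.34 and 0.57 after ADDL, 0.79 and 0.72 after CAT-SKL+ADDL, and 0.077 and -0.26 after ADDL+CAT-SKL), and the part of that in its values was not tested. Of 15 carriers, porins and uncouplers 13 were tested and 0 passed, with Hk1, the hexokinase that binds mitochondria, at 0.27, 0.36, 0.13 and 0.31.

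Among the 16 regulators of mitochondrial biogenesis, all tested, 1 passed as higher and 1 as lower after CAT-SKL (beside 0.837% and 1.78% of all genes). Both were just under the threshold, and 0 passed in the other 3 treatments. Tfam, which packages and transcribes mitochondrial DNA, was 0.28 ± 0.058 (SE) higher after CAT-SKL (limma, adjusted p = 0.0496), and its arrays gave 0.34 and 0.22 after CAT-SKL, 0.31 and 0.24 after ADDL, 0.27 and 0.25 after CAT-SKL+ADDL, and 0.23 and 0.14 after ADDL+CAT-SKL. All were above 0. Pprc1, a coactivator related to PGC-1, was at -0.30 ± 0.061 after CAT-SKL (adjusted p = 0.0496), with -0.34 and -0.26 after CAT-SKL, -0.24 and -0.29 after ADDL, -0.35 and -0.40 after CAT-SKL+ADDL, and -0.24 and -0.062 after ADDL+CAT-SKL, all below 0. After ADDL the means were close to those after CAT-SKL, at 0.27 for Tfam (limma, adjusted p = 0.0770) and -0.26 for Pprc1 (adjusted p = 0.0884). Gabpa, a subunit of GABP, averaged 0.26, 0.23, 0.39 and 0.12 and Esrra, the ERR alpha receptor, -0.23, -0.20, -0.22 and -0.077. Of 66 mitochondrial ribosomal protein genes, all tested, 1 fell after CAT-SKL, a share near the 1.78% of all genes (Mrpl45, -0.34 ± 0.067, adjusted p = 0.046) and 0 passed elsewhere. Their medians were -0.025, -0.059, -0.0015 and -0.066.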

How the data were processed

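Total RNA of treated cultures was set against vehicle RNA on 8 two-colour Agilent arrays of 1 slide (62976 spots each). The authors deposited scanner files with an intensity for each spot and dye (median signal and local background) and flags for spot quality. Each file also gives a log10 ratio of Cy5 over Cy3, which Agilent Feature Extraction 11.5 had corrected for background and dye, per the file headers. The deposited table of the whole series repeats these log10 ratios to within 0.00500 and was used as an alternative.

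All log2 values of the text were computed here from the deposited intensities. The steps were normexp (offset 50) and within-array loess, with control spots given weight 0 (limma 3.58.1, R 4.3.3). Mean signals had been planned, but the files hold medians. Outlier spots were dropped (902 to 1262 an array), 0 spots were saturated, and spots of a probe were averaged. Where a gene had several tested probes, the brightest of those with a value on every array stood for it. Probes were named through the GRCr8 RefSeq table (17998 of 30367 matched). Probes without a symbol were grouped by their accession. Each such accession counted as a gene, so the shares of all genes include them. Groups were fitted with lmFit and eBayes over 7 samples (3 residual and 5.05 prior degrees of freedom), against 0 or each other, with Benjamini-Hochberg adjustment over 22459 genes. Testing a ratio against 0 takes no account of variation among vehicle cultures, and p-values rest on the spread of these few arrays, whose number limits the precision. The labels call them biological replicates. The fit was run on simulated data without dye preference or drift with brightness. The planted changes were larger than the loess mean of any member, so that run does not speak to changes of the size seen here.

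The members and gene lists were chosen with earlier results of these data known. Genes were named by this rule: members that passed, the 3 highest and lowest per treatment with 1 sign on both arrays, the extremes of each complex, disagreeing probes, isoforms with their partners, Atp5if1, and up to 4 genes per list. Members described for their sign on all arrays, for gaps between treatments or as partners in a complex were added after their values were seen, as were the comparisons of the sequential treatments with CAT-SKL alone. Values of 1 member are not reported here, though it is counted in the totals.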

Additional observations from a re-analysis of the deposited data

How the results depend on the processing

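The number of members that passed depended on the fit. After CAT-SKL, 1 member passed in the fit described, 5 with 8 separate samples, 22 with median centring, and 0 with the deposited log ratios, without background subtraction, without the detection filter, or with a replicate block; leaving out single arrays gave 0 to 1. After ADDL the count of 0 became 4 with 8 separate samples and 3 with those and a replicate block (an alternative added after the data were seen), and 0 to 1 without single arrays. After CAT-SKL+ADDL the count of 0 became 7 with 8 separate samples, 3 with median centring and 5 with 8 samples and the block. After ADDL+CAT-SKL the count of 1 became 8 with 8 separate samples, 8 with median centring, 3 with 8 samples and the block, and 0 with the deposited log ratios, without background subtraction, without the filter, with the mean of probes or with a replicate block; leaving out single arrays gave 0 to 1. With 8 separate samples 8.1%, 4.34%, 10.3% and 3.94% of all genes passed in the 4 treatments. With median centring 8.1%, 1.91%, 1.45% and 1.67% of all genes passed, in either direction. The comparisons of treatments kept 0 members under the alternatives run.

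The member median after CAT-SKL, 0.042, was 0.227 with median centring, 0.035 without the filter and 0.029 with the mean of probes, and 0.021 to 0.042 without single arrays. After ADDL it was -0.0015, and 0.0043 and 0.011 without either ADDL array. After CAT-SKL+ADDL it was 0.051, then 0.321 with median centring and 0.058 with the deposited ratios, and 0.049 to 0.056 without single arrays. After ADDL+CAT-SKL it was 0.021 and became 0.134 with median centring. The cause of these differences was not tested, except that fewer samples or an unfiltered gene set change the test itself.

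Replicate numbers did not pair the samples: deviations of same-numbered arrays from their group means correlated between -0.202 and 0.078 over the 6 pairs of groups. With 1 sample after CAT-SKL+ADDL, its spread was assumed to equal that of the other groups. All 77 members were well above background in both dyes on all arrays, and 60 lay in the brightest 10% of genes. Cox8b (brightness group 2 of 10, counted from the dimmest) and Uqcrq (brightness percentile 47) were dimmer. The part of that in their ratios was not tested.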
